A study of Mus musculus with 34 samples.

Results

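The comparison described here sets ribosome footprints of mouse hippocampus 4 h after contextual fear conditioning against footprints 30 min after it. It sets 6 of the 34 samples of the series against each other, 3 at 4 h and 3 at 30 min, over all 11531 genes listed for the tissue. The 6 footprint libraries of 5 and 10 min entered the same fit, of 12 libraries, and contributed to its estimate of the spread. Libraries were paired by the replicate number in their labels, and no control library entered the test. The study measured ribosome-protected mRNA fragments (RPF, or footprints) and RNA in hippocampi of C57BL/6N mice: 4 h, 30 min, 10 min and 5 min after conditioning, and without stimulus, with 3 libraries of each kind per group. Mice in single cages had been handled for 3 min a day on 4 days. Conditioned mice explored a chamber for 148 s, received a foot shock of 2 s and went back to the home cage 30 s later. No transgene or drug was named for any group. Hippocampi were lysed in buffer with 100 µg/mL cycloheximide, which holds ribosomes on the mRNA, and ribosomes with their mRNA were purified by gel filtration. The labels do not say whether a library came from 1 mouse or from pooled mice, so the p-values cover only the spread among these libraries, which may be technical.

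A shock in a new chamber activates hippocampal neurons, and calcium entry through synaptic receptors and channels switches on immediate-early genes through factors already present in the cell, among them CREB and SRF. These genes need no new protein for their induction, and both their mRNAs and their proteins are short-lived. Many encode transcription factors (Fos, Egr1, Npas4), some act at synapses (Arc, Homer1), and others shut the kinase signal down again (dual-specificity phosphatases). A footprint is the stretch of mRNA that a ribosome covers, so the footprint signal of a gene reflects both how much mRNA there is and how many ribosomes sit on it.

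Footprints differed at few genes between 4 h and 30 min. At 4 h, 7 genes had fallen (0.0607% of the genes tested) and 1 had risen (0.00867%), by limma at an adjusted p under 0.05, with Benjamini-Hochberg adjustment over all 11531 genes. The fallen genes were Fos, Nr4a1, Arc, D4Wsu53e, Junb, Dusp1 and Egr1, and the gene that had risen was Kcnj2. At an unadjusted p under 0.05 there were 580 genes (5.03%), a share close to that threshold. Over all genes the median log2 change, 4 h minus 30 min, was -0.01 with a standard deviation of 0.09 across genes, and 79.0% of genes lay within 0.1 of no change. Log2 changes here are fitted on log2(signal + 0.1), which understates the change of weakly read genes, so ratios of mean signals are given with them. The signal is the deposited value, a number of reads divided by 1 number per library, and it is compared between libraries of the same kind and for 1 gene at a time.

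**Figure D1:**
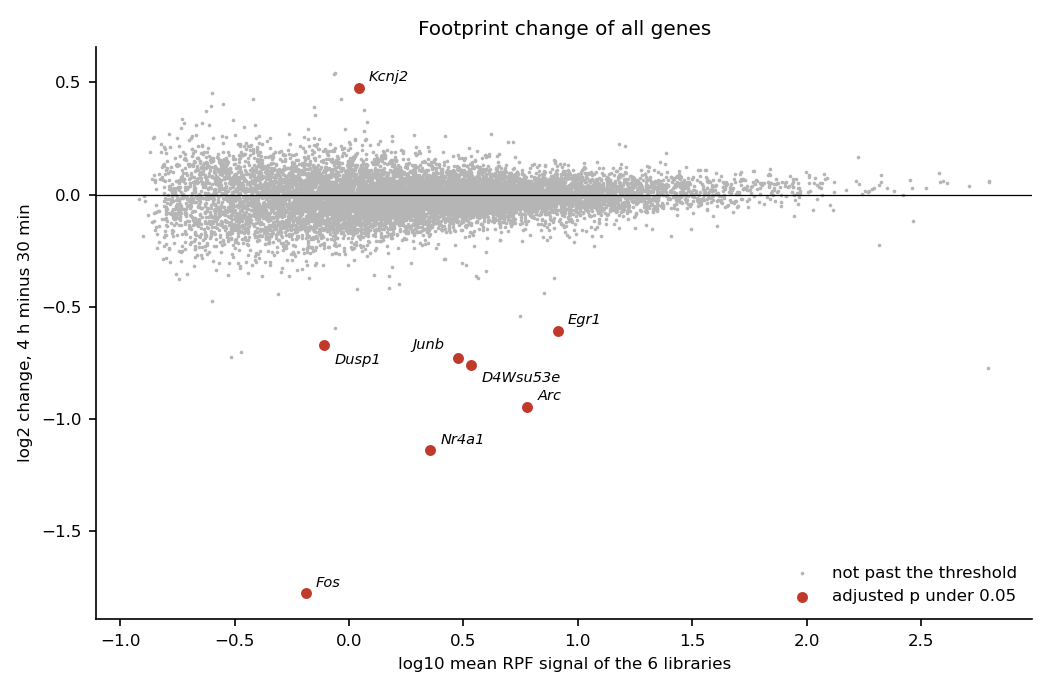
Log2 footprint change (4 h minus 30 min, vertical axis) of each of the 11531 genes against the log10 of its mean RPF signal over the 6 libraries. Red points are the 8 genes past the threshold. Fos, at -1.78, lay lowest, and Kcnj2 was the red point above the zero line.

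The sequences just upstream of these genes are shown because many immediate-early genes are known targets of CREB. Promoter sequences came from RefSeq (mouse build GRCm38.p6), as the 250 bases before the annotated start, and were found for 6 of the 8 genes; Arc and Egr1 had none in the table used. Capitals mark TGACG or its reverse complement CGTCA, the half-site of the cAMP response element that CREB binds, searched on both strands. The windows were chr12:85473640-85473889 (+ strand) for Fos, chr15:101266596-101266845 (+) for Nr4a1, chr4:134923375-134923624 (+) for D4Wsu53e, chr8:84978749-84978998 (- strand) for Junb, chr17:26508473-26508722 (-) for Dusp1 and chr11:111065914-111066163 (+) for Kcnj2. Each is printed 5' to 3' on the strand of its gene.
Fos: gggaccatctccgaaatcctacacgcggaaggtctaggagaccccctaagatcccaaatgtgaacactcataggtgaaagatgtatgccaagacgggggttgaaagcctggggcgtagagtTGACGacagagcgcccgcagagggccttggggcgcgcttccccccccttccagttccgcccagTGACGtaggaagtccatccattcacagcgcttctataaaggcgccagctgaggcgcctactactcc
Nr4a1: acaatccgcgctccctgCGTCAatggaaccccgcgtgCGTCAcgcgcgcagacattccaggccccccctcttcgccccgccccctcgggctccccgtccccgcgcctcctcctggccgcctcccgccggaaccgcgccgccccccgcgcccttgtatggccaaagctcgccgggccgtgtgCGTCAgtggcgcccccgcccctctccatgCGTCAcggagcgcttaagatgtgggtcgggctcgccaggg
D4Wsu53e: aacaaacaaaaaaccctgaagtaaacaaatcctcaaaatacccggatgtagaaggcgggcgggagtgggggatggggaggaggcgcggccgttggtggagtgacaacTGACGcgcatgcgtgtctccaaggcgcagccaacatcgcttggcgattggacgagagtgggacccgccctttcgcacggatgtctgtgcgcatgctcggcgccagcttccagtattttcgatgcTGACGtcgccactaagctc
Junb: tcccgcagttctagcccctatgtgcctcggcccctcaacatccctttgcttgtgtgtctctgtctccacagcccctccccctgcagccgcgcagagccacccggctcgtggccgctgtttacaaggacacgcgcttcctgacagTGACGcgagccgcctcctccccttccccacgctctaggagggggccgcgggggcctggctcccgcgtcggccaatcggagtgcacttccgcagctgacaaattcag
Dusp1: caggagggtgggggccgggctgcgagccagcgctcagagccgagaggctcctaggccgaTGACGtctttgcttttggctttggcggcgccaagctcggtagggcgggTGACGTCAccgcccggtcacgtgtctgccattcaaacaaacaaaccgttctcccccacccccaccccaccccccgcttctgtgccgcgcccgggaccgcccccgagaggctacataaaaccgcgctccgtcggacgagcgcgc
Kcnj2: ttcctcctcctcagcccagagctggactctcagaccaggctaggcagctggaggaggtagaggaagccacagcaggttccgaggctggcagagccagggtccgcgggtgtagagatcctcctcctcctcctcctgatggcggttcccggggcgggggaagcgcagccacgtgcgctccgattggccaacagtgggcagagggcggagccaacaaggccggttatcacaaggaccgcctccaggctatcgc

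Half-sites occurred in 5 of these 6 windows. Nr4a1 held 4, Dusp1 held 3, Fos and D4Wsu53e held 2 each, and Junb held 1. Of the 3 in Dusp1, 2 overlap in a full palindrome, TGACGTCA. The window of Kcnj2, which rose, held none. Among all 32851 promoter windows of this length in the RefSeq table, 17.8% held at least 1 half-site, 3.9% held 2 or more, and 1.55% held the palindrome. A match of letters is a description of the sequence and does not show that a factor binds there, and no match says only that these letters are not in the window.

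Transcription factors made up 4 of the 7 fallen genes. Fos encodes the partner of Jun proteins in AP-1. Its footprint signal was 0.256, 0.217 and 0.238 in the 3 libraries at 4 h, against 0.983, 1.04 and 1.14 at 30 min. Every library at 4 h lay below every library at 30 min, and the mean was 4.45-fold lower at 4 h, the largest fall of the 11531 genes on the log2(signal + 0.1) scale (-1.78, SE 0.12, adjusted p = 7.49e-08, limma). These values rest on 49 to 102 reads per library at 4 h and 332 to 450 at 30 min.

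Nr4a1 encodes an orphan nuclear receptor. It had 1.61, 1.29 and 1.24 at 4 h, against 3.01, 3.19 and 3.25 at 30 min. The groups did not overlap, the mean was 2.28-fold lower at 4 h, and the log2 change was -1.14 (SE 0.12, adjusted p = 2.27e-05, limma).

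Junb encodes another AP-1 subunit. It had 2.21, 2.27 and 2.20 at 4 h, against 3.36, 4.04 and 3.91 at 30 min. The 3 libraries at 4 h were nearly equal, and the mean was 1.69-fold lower than at 30 min (log2 change -0.73, SE 0.08, adjusted p = 2.68e-05, limma).

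Egr1 encodes a zinc finger factor used as a marker of neuronal activity. It had 7.04, 6.32 and 5.99 at 4 h, against 10.0, 9.30 and 10.3 at 30 min. The groups again did not overlap, and the mean was 1.53-fold lower at 4 h (log2 change -0.61, SE 0.06, adjusted p = 1.95e-05, limma).

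The other 3 fallen genes had other roles. Arc, whose protein helps remove AMPA receptors from the synapse, had 4.51, 4.06 and 3.70 at 4 h, against 8.32, 7.76 and 7.74 at 30 min. All 3 pairs fell by similar amounts, and the mean was 1.94-fold lower at 4 h (log2 change -0.95, SE 0.08, adjusted p = 1.09e-06, limma). Dusp1, a phosphatase that inactivates MAP kinases, had 0.613, 0.597 and 0.525 at 4 h, against 0.945, 0.959 and 1.04 at 30 min. Its mean was 1.69-fold lower at 4 h (log2 change -0.67, SE 0.11, adjusted p = 0.011, limma).

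D4Wsu53e, listed in RefSeq as Rsrp1, was the fallen gene outside the lists of early genes used here. It had 2.44, 2.60 and 2.52 at 4 h, against 4.41, 4.21 and 4.39 at 30 min. Spread within each time was small, the groups were far apart, and the mean was 1.72-fold lower at 4 h (log2 change -0.76, SE 0.09, adjusted p = 0.000197, limma).

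Kcnj2 encodes Kir2.1, an inward rectifier potassium channel that helps set the resting potential. It had 1.39, 1.35 and 1.15 at 4 h, against 1.02, 0.887 and 0.808 at 30 min. Each library at 4 h was above each at 30 min, and the mean was 1.43-fold higher at 4 h (log2 change 0.48, SE 0.09, adjusted p = 0.0306, limma). Next in order of unadjusted p among genes with higher footprints, and not past the threshold, were Kirrel2 (log2 change 0.54, adjusted p = 0.0826), Usp2 (0.27, adjusted p = 0.136), Crocc (0.29, adjusted p = 0.337) and Kdr (0.38, adjusted p = 0.339). In Kirrel2, Usp2 and Crocc the libraries at 4 h did not overlap with those at 30 min; in Kdr, a receptor for vascular endothelial growth factor, they did.

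**Figure D2:**
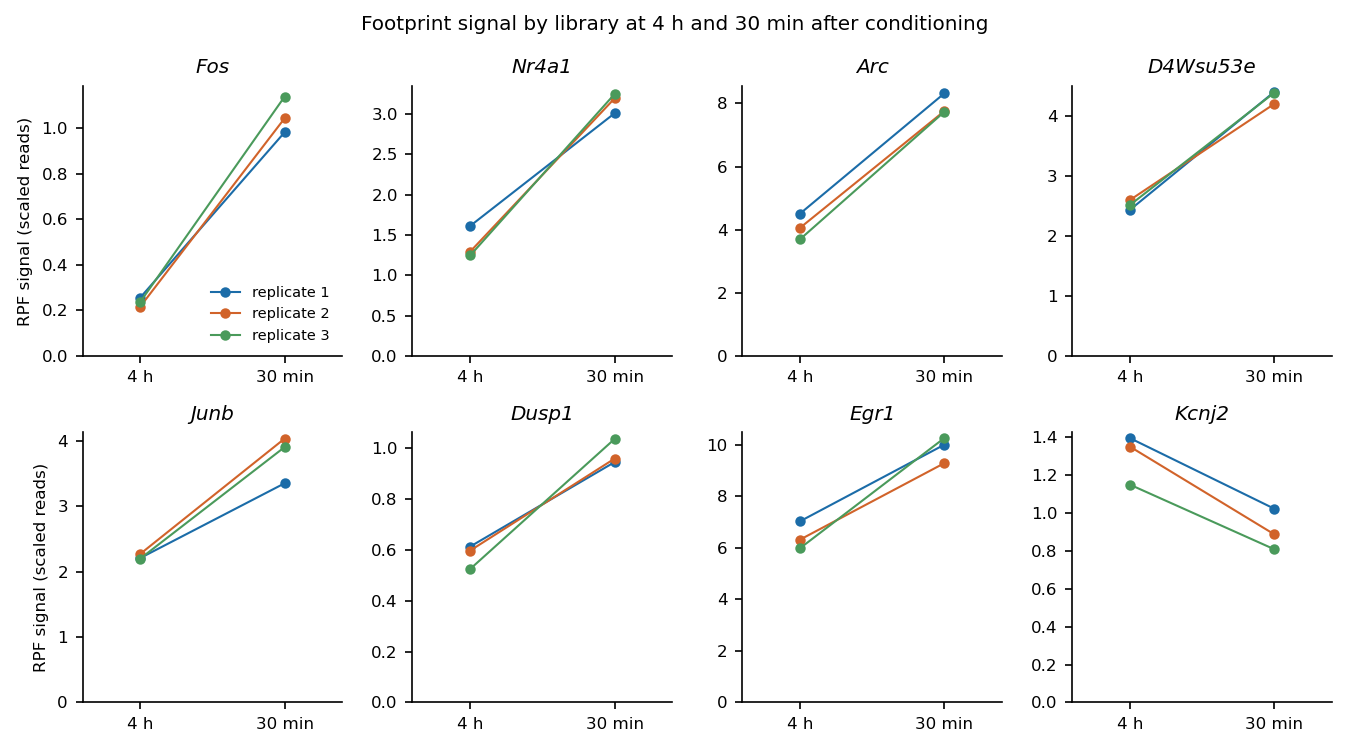
RPF signal (linear axis from 0) of the 8 genes past the threshold in each library at 4 h (left) and 30 min (right), with lines joining libraries that carry the same replicate number. In 7 genes all 3 lines are lower at 4 h, and in Kcnj2 all 3 are higher at 4 h.

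Nr4a1, Arc and Egr1 were past the threshold under each of 19 alternatives. Fos was past it in all 18 that tested it, since a filter at a mean signal of at least 1 removed it. Without the replicate pairing these 4 were the calls left (4 of 8). Junb and D4Wsu53e missed the threshold without the pairing (adjusted p = 0.264 and 0.333, limma), Dusp1 in 6 of 18 alternatives and Kcnj2 in 10 of 19. A fit on the 6 libraries alone called 59 genes. It had few residual degrees of freedom, and its p-values (adjusted p = 1.4e-70 for Fos, limma) are not to be taken at face value.

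Setting the other groups beside these levels shows where each gene stood at 4 h. In order of control, 5 min, 10 min, 30 min and 4 h, mean footprint signals of Fos were 0.398, 0.418, 0.876, 1.06 and 0.237. Those of Nr4a1 were 1.78, 1.70, 1.80, 3.15 and 1.38, so its higher level appeared at 30 min and not before. Those of Arc were 4.51, 4.81, 6.56, 7.94 and 4.09. The course was thus a climb over 10 and 30 min for Fos and Arc, and a step at 30 min for Nr4a1. Egr1 averaged 6.91, 7.41, 8.69, 9.86 and 6.45, and Junb 2.54, 2.82, 3.54, 3.77 and 2.23. D4Wsu53e averaged 3.22, 3.34, 3.83, 4.34 and 2.52, and Dusp1 0.679, 0.641, 0.896, 0.980 and 0.578.

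All 7 fallen genes had their highest mean at 30 min, and all 7 had a lower mean at 4 h than in control. These genes were chosen for 4 h values below those at 30 min in the same libraries, which favours both patterns. In 4 of the 7 every library at 4 h was also below every control library. The 4 were Fos, Nr4a1, D4Wsu53e and Junb: the highest library at 4 h had 0.256, 1.61, 2.60 and 2.27, and the lowest control library 0.354, 1.63, 3.02 and 2.29. For Nr4a1 and Junb the gap was narrow. The choice of genes also favours the count of 4 of the 7, and its share over all genes was not worked out. These levels are a description, and 4 h was not tested against control here. Kcnj2 averaged 1.01, 0.960, 1.03, 0.906 and 1.30 in the same order, with no group before 4 h above 1.03.

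**Figure D3:**
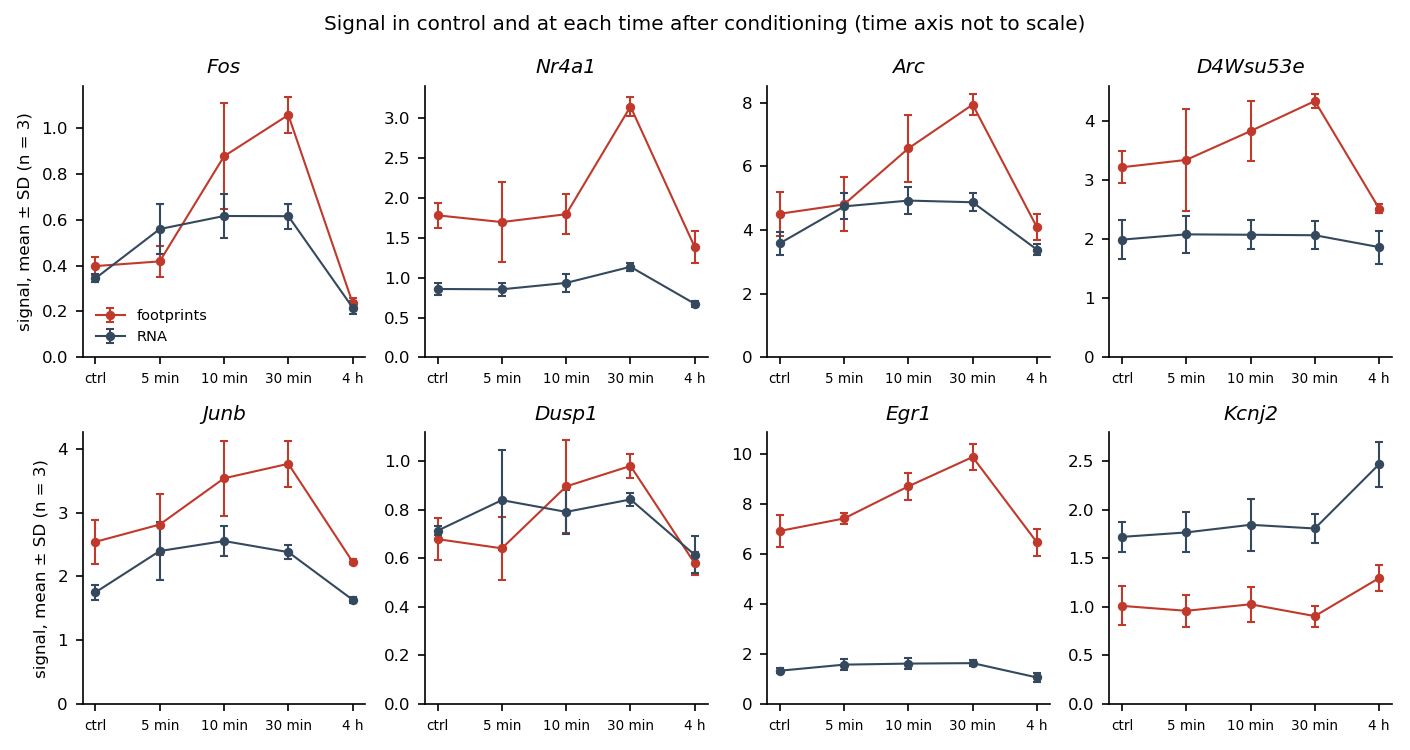
Mean signal ± SD (n = 3 libraries a point) of footprints (red) and RNA (dark blue) for the 8 genes in control and at 5 min, 10 min, 30 min and 4 h, on linear axes from 0 with times evenly spaced. Footprints and RNA were scaled separately, so their heights cannot be compared; in 7 genes footprints were highest at 30 min and in Kcnj2 at 4 h.

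RNA from the same groups, which did not enter the footprint test, was fitted in the same way. At 4 h, 5 genes were lower in RNA (0.0434% of 11531) and 2 were higher (0.0173%), and 6 genes were past the threshold in both footprints and RNA. At an unadjusted p under 0.05 there were 512 genes in RNA (4.44%). RNA of Fos fell by 1.17 on the log2 scale (SE 0.12, adjusted p = 1.06e-06, limma), with 0.190, 0.217 and 0.244 at 4 h, against 0.631, 0.660 and 0.554 at 30 min. RNA of Nr4a1 fell by 0.68 (adjusted p = 0.000134), of Egr1 by 0.59 (adjusted p = 0.000807), of Junb by 0.52 (adjusted p = 0.000246) and of Arc by 0.51 (adjusted p = 1.94e-06, limma). RNA of Kcnj2 was higher at 4 h by 0.43 (SE 0.07, adjusted p = 0.00424), with 2.69, 2.49 and 2.23 at 4 h, against 1.97, 1.79 and 1.66 at 30 min. The second gene higher in RNA was Pdzd2 (log2 change 0.38, adjusted p = 0.0315), whose footprint change was 0.20 (adjusted p = 0.942) with overlapping groups. Without the replicate pairing 1 gene, Fos, was past the threshold in RNA.

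D4Wsu53e and Dusp1 had fallen in footprints without a call in RNA. RNA of D4Wsu53e had 1.56, 2.11 and 1.92 at 4 h, against 1.82, 2.28 and 2.10 at 30 min, a log2 change of -0.14 (SE 0.06, adjusted p = 0.999, limma). Each pair was lower at 4 h, by 0.10 to 0.21, but the groups overlapped. RNA of Dusp1 had 0.531, 0.630 and 0.680 at 4 h, against 0.824, 0.831 and 0.872 at 30 min, so its groups did not overlap although the change of -0.41 missed the threshold (SE 0.11, adjusted p = 0.479).

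Whether footprints changed more than RNA was asked with the interaction of kind of library and time, the change in translational efficiency. No gene of 11531 was past the threshold (0.0%), and 321 had an unadjusted p under 0.05 (2.78%, limma). All 7 fallen genes had a larger change in footprints than in RNA. They were chosen by their footprint change and not by RNA, which favours that direction. The difference ran from -0.02 for Egr1 (SE 0.11), whose sign turned in 3 alternatives, to -0.62 for D4Wsu53e. D4Wsu53e also had the smallest p (SE 0.12, adjusted p = 0.137, limma). The difference was -0.60 for Fos, -0.46 for Nr4a1, -0.43 for Arc (adjusted p = 0.849, limma), -0.27 for Dusp1 and -0.21 for Junb, none past the threshold. For Kcnj2 it was 0.05 (SE 0.11). In the fit on the 4 h and 30 min libraries alone, 2 genes were past the threshold, and in 3 of the 18 alternatives at least 1 was. Of the other genes named by p in this comparison, Uba6 (-0.31), Prkg1 (-0.40) and Nhlrc2 (-0.39) were lower in footprints relative to RNA. Kirrel2 (0.58), which was also named for its footprint change, Tmem138 (0.47), Arsj (0.45), Tmed1 (0.37) and Tpra1 (0.37) were higher. None of these passed the threshold.

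**Figure D4:**
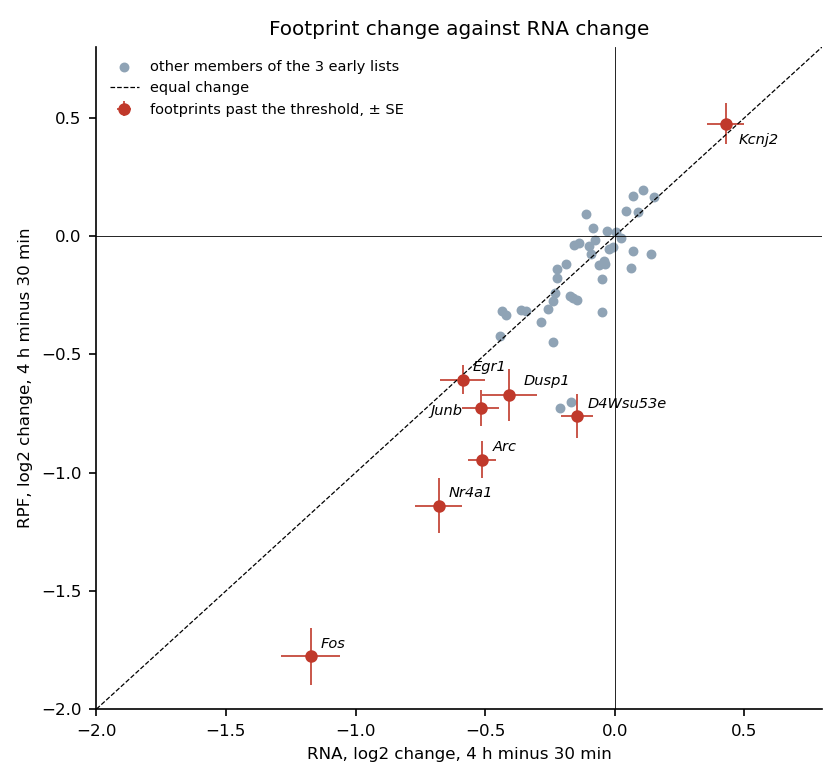
Log2 change (4 h minus 30 min) in footprints (vertical) against that in RNA (horizontal) for the 8 genes past the threshold in footprints (red, bars of 1 SE) and the other members of the early lists (grey-blue). The dashed line marks equal change; Egr1 and Kcnj2 lie on it within their bars, and D4Wsu53e lies far below it.

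Beyond the calls, the early genes were read as 3 lists: immediate-early transcription factors, immediate-early effectors and feedback regulators. Of their 62 genes, 49 were listed in the tissue tables. Footprints were lower at 4 h in 40 of the 49, against 55.5% of all genes, and the groups did not overlap, with 4 h lower, in 25 of the 49 (51.0%), against 2.7% of all genes. Of the 49, 6 were called lower and 0 higher, and 36 were lower in both footprints and RNA. In RNA, 10 of the 49 were higher at 4 h, against 47.9% of all genes, and 19 of the 49 were lower without overlap, against 2.42% of all genes. The members were chosen with earlier results of these data known, so the counts describe them and are no independent evidence.

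Among the transcription factors 17 of 26 were listed, 15 were lower at 4 h, 11 without overlap, and the median log2 change was -0.27. The 4 calls were Fos, Nr4a1, Junb and Egr1. Npas4, a factor induced by neuronal activity, had 0.334, 0.248 and 0.135 at 4 h, against 0.507, 0.406 and 0.397 at 30 min (log2 change -0.70, adjusted p = 0.129). Its highest mean was earlier, 0.741 at 10 min against 0.437 at 30 min. Fosb, an AP-1 subunit, had 0.156, 0.314 and 0.156 at 4 h, against 0.384, 0.346 and 0.467 at 30 min (log2 change -0.72, adjusted p = 0.25). For both genes the groups did not overlap, and the low signal went with a wide error (SE 0.15 for Npas4 and 0.17 for Fosb).

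The family members of the called factors named here had smaller changes than the called members of their own family, though Fosb came close to Junb. Nr4a2 had a log2 change of -0.31 and Nr4a3 of -0.12, each without overlap and neither past the threshold, against -1.14 for Nr4a1. Egr3 (-0.03) and Jun (-0.01) had overlapping groups. Klf10 was at -0.32 (adjusted p = 0.136), and Klf6, a factor of the same family, had 1.77, 1.84 and 1.90 at 4 h, against 1.53, 1.60 and 1.65 at 30 min. Klf6 was thus higher at 4 h in each library (log2 change 0.20, adjusted p = 0.655), the opposite direction to Klf10, and neither passed the threshold.

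Of the effectors 13 of 16 were listed, 11 were lower at 4 h, 7 without overlap, the median was -0.14, and the 1 call was Arc. Cyr61, a secreted matrix protein, came closest of the rest (log2 change -0.42, adjusted p = 0.0697), with 0.997, 0.850 and 0.887 at 4 h, against 1.37, 1.19 and 1.20 at 30 min. Gadd45b and Gadd45g, DNA damage and stress response genes, were at -0.31 and -0.26 without overlap. Homer1, a scaffold of the postsynaptic density with a short activity-induced form, had 7.41, 7.32 and 7.33 at 4 h, against 6.84, 7.09 and 6.60 at 30 min. Its libraries at 4 h were all above those at 30 min, but the log2 change was 0.10 (adjusted p = 0.978), and the table has 1 entry for the gene, so forms cannot be told apart. Ptgs2, the inducible cyclooxygenase, was at 0.17 with overlapping groups.

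Of the feedback regulators 19 of 20 were listed, 14 were lower at 4 h, 7 without overlap, the median was -0.12, and Dusp1 was the 1 call. Sik1, a kinase that holds back CREB coactivators, had 0.470, 0.389 and 0.340 at 4 h, against 0.670, 0.579 and 0.493 at 30 min (log2 change -0.45, adjusted p = 0.0826). Nfkbia, the inhibitor of NF-kappa-B, was at -0.36, and Dusp5 and Dusp6, phosphatases of ERK, were at -0.32 and -0.26, none past the threshold. Btg2, an antiproliferative gene, was at -0.31 in footprints (adjusted p = 0.605) and -0.44 in RNA (adjusted p = 0.0818). Spry2 (0.16), Nab1 (0.11) and Dusp14 (0.09) had higher values at 4 h, without a call. Of the 25 early members that were lower without overlap, 19 had their highest mean footprint signal at 30 min, 5 at 10 min and 1 at 5 min. These 25 were picked for 30 min libraries above those at 4 h, which excludes a highest mean at 4 h and favours 30 min.

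Late-response effectors are induced hours after activity and include secreted and synaptic proteins. Of 20, 16 were listed, 10 were higher at 4 h and 6 lower, none was called, and the median was 0.03. Nptx2, a secreted pentraxin that clusters AMPA receptors, was the highest, with 5.11, 5.96 and 5.06 at 4 h, against 4.47, 5.05 and 4.16 at 30 min. Its libraries at 4 h were all above those at 30 min (log2 change 0.23, SE 0.06, adjusted p = 0.413). Bdnf, a neurotrophin, had 4.74, 4.98 and 4.69 at 4 h, against 4.34, 5.16 and 4.49 at 30 min, a log2 change of 0.04 (SE 0.07) with overlapping groups. Vgf (0.09), Scg2 (0.03) and Nptx1 (0.02) overlapped as well.

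A foot shock raises corticosterone, and clock genes follow the time of day, so glucocorticoid-responsive and clock genes were listed too. Of the glucocorticoid list 18 of 20 were listed, 9 were lower and 9 higher, the median was 0.00489, and the 1 call was Dusp1, which is also a feedback regulator. Without overlap, 3 of the 18 (16.7%) were lower and 2 (11.1%) higher, against 2.7% and 1.14% of all genes. Sgk1, a kinase induced by glucocorticoids, had 7.56, 5.47 and 5.04 at 4 h, against 8.70, 9.12 and 6.63 at 30 min (log2 change -0.44, adjusted p = 0.25), and its groups overlapped. Sult1a1, a sulfotransferase, was the highest member (0.39, adjusted p = 0.361, no overlap), and Fkbp5, a cochaperone of the receptor, was at 0.08. Of 18 clock genes 11 were higher and 7 lower with a median of 0.06 and 0 calls, from -0.18 (Nfil3) to 0.17 (Per3). Without overlap, 4 of the 18 (22.2%) were lower and 1 (5.56%) higher. Some members of both lists are also in the early lists. Per1 and Per2 lay at -0.12 and 0.09, both with overlapping groups.

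Ribosomal protein genes, which encode the subunits of the ribosome itself, had slightly lower footprint values at 4 h. Of 75 genes 72 were lower, with a median log2 change of -0.12 and medians of -0.10, -0.20 and -0.09 in replicate pairs 1, 2 and 3. None was called, and 4 of 75 (5.33%) were lower without overlap, against 2.7% of all genes. In RNA 24 of the 75 were lower and the median was 0.01. The lowest in footprints was Rps27a (-0.21) and the highest Rpl26 (0.06). Many of these genes have near-identical copies, and the sources used here do not say how reads matching several genes were counted. Proteasome genes were lower in 39 of 44 (median -0.05) and oxidative phosphorylation genes in 52 of 72 (median -0.02), with 0 calls in each. Among all genes 55.5% were lower, and the median over all genes was -0.01, and -0.05 in pair 2. With median-centred libraries the median was -0.03 for the proteasome and -0.002 for oxidative phosphorylation. Pair medians were 0.02, -0.12 and -0.06 for the proteasome and 0.02, -0.08 and 0.005 for oxidative phosphorylation, so neither direction held in each pair, and the median of the second list was 0.01 without replicate 2.

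**Figure D5:**
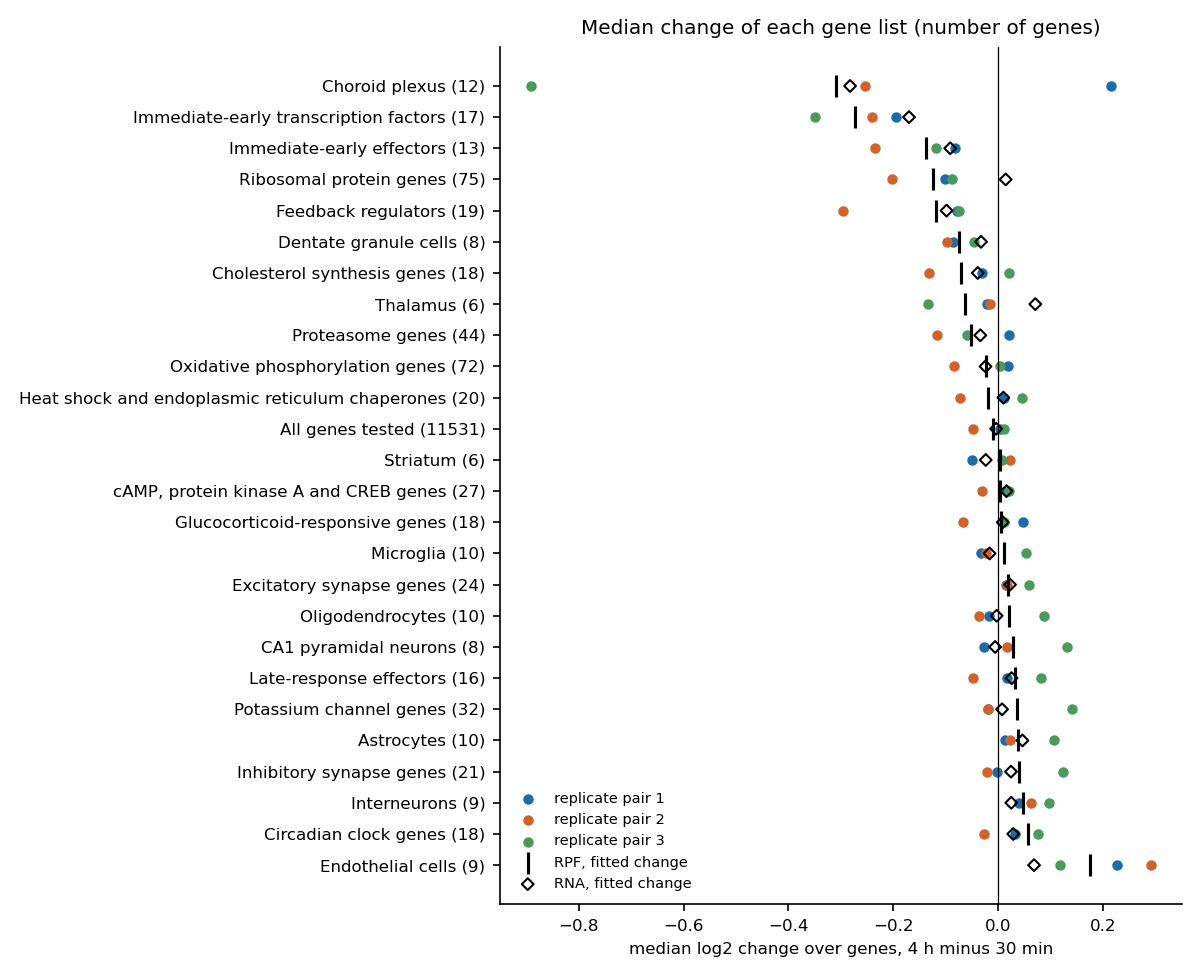
Median log2 change (4 h minus 30 min) over the genes of each list, with the number of genes tested in brackets. Bars mark the footprint median from the fit, coloured points the footprint medians of the 3 replicate pairs and open diamonds the RNA median; choroid plexus markers spread from -0.89 to 0.22 between pairs.

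Cell type markers were compared between the times because dissection can change what a sample holds, and in bulk tissue fewer cells of a type and less RNA per cell cannot be told apart. No marker of any list was at 0 in any library, but every listed gene had at least 3 reads in each, so this is no trait of the markers. Choroid plexus markers, which mark an epithelium that lies beside the hippocampus, varied most: their summed footprint signal was 1571, 931 and 69.4 in replicates 1, 2 and 3 at 4 h, against 1333, 1094 and 188 at 30 min. Both libraries of replicate 3 were low, and all 12 markers were lower at 4 h in the fit (median -0.31, 0 calls), while the median without replicate 3 of 4 h was 0.06. Endothelial markers were higher at 4 h in 9 of 9 (median 0.18, with 0.23, 0.29 and 0.12 in the 3 pairs, 0 calls). Their summed signal was 14.7 to 21.5 at 4 h and 13.5 to 19.2 at 30 min, and each pair was higher at 4 h. Kcnj2 was higher beside them, and the part of the endothelial markers in that value was not tested.

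Markers of hippocampal cells differed less in their medians. The median was 0.03 for CA1 pyramidal neurons (8 genes), -0.07 for dentate granule cells (8 genes, 7 lower), 0.05 for interneurons (9 genes), 0.04 for astrocytes (10 genes), 0.02 for oligodendrocytes (10 genes) and 0.01 for microglia (10 genes), with 0 calls in all. Of the astrocyte markers 2 (20.0%) were higher without overlap, against 1.14% of all genes, and 0 were lower. The other lists of hippocampal cells had no marker without overlap in either direction. Striatal and thalamic markers, from regions near the dissection, had medians of 0.00371 and -0.06 over 6 genes each. For Fos, Nr4a1, Arc, Egr1, Junb and D4Wsu53e, the footprint call held without each replicate number and without each single library in turn. The calls of Dusp1 and Kcnj2 did not hold in each. The part of cell composition in any of these calls was not tested.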

How the data were processed

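Footprint and RNA libraries of hippocampus were analysed; culture and embryonic stem cell tables were not used here. The submitters' processing notes name CASAVA 1.8.2, Bowtie 1.1.1 and the genome build mm9. The deposited signal equals whole reads divided by 1 number per library (226 to 458 in the 6 footprint libraries), within 0.001 reads; the sources used here do not give the divisor's meaning or the role of gene length. The deposited log2 columns compare times with control and were not used. Listed genes held 14240563 to 30480009 reads per footprint library (median gene 416 to 891) and 16814796 to 25300011 per RNA library.

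Log2(signal + 0.1) was fitted in limma 3.58.1 (R 4.3.3; lmFit, eBayes with trend), 2-sided, over the 12 libraries of the 4 conditioned groups, with replicate number as a block; 24 libraries entered the efficiency model, with the block within each kind. Genes needed a mean signal of at least 0.1, which removed none. Replicate numbers paired the samples: deviations from group means correlated at 0.851, 0.730 and 0.720 in same-numbered footprint libraries and at 0.755, 0.490 and 0.671 in RNA. Replicates differed by more than sampling noise. The fits were tested on simulated data. Named genes were those past the threshold in all 3 pairs, or else the 5 of smallest p in a direction, plus list members. The members and lists were chosen with earlier results of these data known.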

Additional observations from a re-analysis of the deposited data

How the results depend on the processing

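The count of 8 footprint genes became 4 without the replicate block, 59 on the 4 h and 30 min libraries alone and 5 at a mean signal of at least 1 (7893 genes tested); leaving out a replicate number gave 6 to 28 (28 without replicate 2), and leaving out a single library of 4 h or 30 min gave 6 to 11. The filter at a mean signal of at least 1 left Fos and Dusp1 untested, and Kcnj2 missed the threshold there (adjusted p = 0.0553, limma). The cause of the other shifts was not tested. All 5 groups gave 7, a pseudocount of 1 gave 11, and a pseudocount of 0.02, no filter, centring and robust eBayes gave 8; voom on the reads behind the signal, chosen after seeing the data, gave 11. The 7 RNA genes became 1 without the replicate block, 3 without replicate 3, 12 without replicate 1 and 18 without replicate 1 of 4 h, the range over omissions being 3 to 18. The 0 genes in efficiency became 2 on the 4 h and 30 min libraries, 2 without replicate 2 and 1 without replicate 2 of 30 min (range 0 to 2); the others gave 0, with 0 without the replicate block.

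With a pseudocount of 1, which is large beside their signals, the footprint changes of Fos, Dusp1 and Kcnj2 were -0.73, -0.33 and 0.27. Kcnj2 missed the threshold in 7 of 9 footprint omissions and Dusp1 in 5 of 9; in RNA, Kcnj2 missed it in 5 of 9, Pdzd2 in 8 of 9, and Egr1 and Junb without replicate 3 (adjusted p = 0.206 and 0.0570). The efficiency difference of Egr1 reversed to 0.010 at a pseudocount of 0.02, to 0.0083 without replicate 2 and to 0.0076 without replicate 2 of 4 h (range over omissions -0.042 to 0.0083), and that of Kcnj2 to -0.035 at a pseudocount of 1; the cause was not tested. The negative median of choroid plexus markers turned to 0.06 without replicate 3 of 4 h. Count models and voom with TMM scaling were not run. At 4 h the footprints of Fos rested on 49 to 102 reads per library, and the effect of depth was not tested.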

Other observations

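Other functional lists had 0 footprint calls each between 4 h and 30 min. Cholesterol synthesis genes were lower at 4 h in 16 of 18 (median log2 change -0.07, lowest Idi1 at -0.18), with pair medians of -0.03, -0.13 and 0.02, so the direction did not hold in each pair. Inhibitory synapse genes were higher in 19 of 21 (median 0.04, from -0.05 for Gad2 to 0.08 for Gabbr2), and their pair medians were -0.001, -0.020 and 0.125. Potassium channel genes, a list that did not hold Kcnj2, were higher in 25 of 32 (median 0.04, from -0.24 for Kcng1 to 0.13 for Kcnt1), with pair medians of -0.020, -0.018 and 0.140 and a median of -0.020 without replicate 3. Excitatory synapse genes were higher in 16 of 24 (median 0.02, from -0.07 for Dlg1 to 0.15 for Shank1). Heat shock and endoplasmic reticulum chaperones were higher in 9 of 20 (median -0.02, from -0.16 for Dnajb5 to 0.11 for Hspa5). Genes of cAMP, protein kinase A and CREB signalling were higher in 15 of 27 (median 0.00410, from -0.09 for Prkar2b to 0.10 for Creb1).

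Nrsn1, which encodes the neuronal membrane protein neurensin, had footprint signals of 2.91, 3.83 and 3.45 at 4 h, against 2.68, 3.63 and 3.35 at 30 min. Each pair was slightly higher at 4 h (log2 change 0.08, SE 0.07, adjusted p = 0.996 by limma), and the groups overlapped. Its relative Nrsn2 had a log2 change of -0.10 (SE 0.06, adjusted p = 0.996) and groups that overlapped.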
